A study of Mus musculus with 13 samples.

Results

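Klrg1, Spn, Ly6c2, Adgrg1, Zeb2, Irf8, Cma1, Serpinb9b, As3mt and Lgals3 are 10 genes grouped here as genes of the terminal maturation of natural killer (NK) cells. They were taken by name, as the rows of the count files whose Ensembl identifier is that mouse gene in GENCODE M21, and they make up 10 of the 54532 identifiers in each file. RNA-seq read counts were deposited for 13 libraries of sorted NK cells from C57BL/6J mice aged 8 to 10 weeks. There were 3 libraries of LrNK cells labelled CD8KO, 4 of LrNK wild type (WT, titled B6), 3 of cNK cells labelled CD8KO and 3 of cNK WT, where LrNK stands for liver-resident and cNK for conventional NK cells. The LrNK libraries are labelled as liver lymphocytes and the cNK libraries as splenocytes, so organ and NK type cannot be told apart. The labels do not say which CD8 chain or allele the CD8KO mice lack, nor that libraries came from separate animals, so the p-values measure the spread between these samples. The study's title asks whether CD8+ T cells, acting through CD70 and its receptor CD27, drive the maturation of LrNK cells.

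As background, NK cells of the mouse spleen mature from CD27-high cells to cells that have lost CD27 and gained the integrin CD11b, and the last stage adds the surface proteins KLRG1, CD43 (the product of Spn) and Ly6C. The transcription factors T-bet and ZEB2 act together in that last step. LrNK cells are marked by the collagen-binding integrin CD49a and the death ligand TRAIL, and unlike cNK cells they make little of the transcription factor Eomes.

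Library totals were 35910292 to 47655853 counts in LrNK labelled CD8KO, 30578631 to 42986589 in LrNK WT, 48600875 to 59670243 in cNK labelled CD8KO and 53519657 to 72716020 in cNK WT. In 3 LrNK libraries (CD8KO replicate 1, WT replicates 1 and 3) 13917 to 15797 genes had a count, against 19896 to 22921 in the other 10 libraries. Among genes with 1 to 20 counts, 49.5% to 55.8% of the values were even in those 3 libraries and 60.6% to 65.2% in the other 10, so a small count need not stand for that many separate reads. LrNK CD8KO replicates 2 and 3, and LrNK WT replicates 2 and 4, agreed far more closely than any other pair of their groups and were summed and counted as 1 sample each, which leaves 2, 3, 3 and 3 samples. Cd8a, which encodes 1 chain of CD8, went against the label: it had 41.6 to 45.1 CPM (counts divided by the library total, times 1000000) in the LrNK libraries labelled CD8KO and 18.5 to 22.4 CPM in LrNK WT, and 85.9 to 109 CPM in the cNK libraries labelled CD8KO and 0.561 to 0.578 CPM in cNK WT. Cd8b1, the gene of the other chain, had 0 to 0.567 CPM in LrNK labelled CD8KO, 0 in LrNK WT, 0.0838 to 0.28 CPM in cNK labelled CD8KO and 0 to 0.0747 CPM in cNK WT. The CD8KO groups are therefore called by their label. The NK types went with their labels: all 5 LrNK markers (Itga1, Cxcr6, Tnfsf10, Cd200r1, Il7r) were higher, and all 4 cNK markers (Itga2, Itgam, Eomes, S1pr5) lower, in LrNK than in cNK cells under both labels (edgeR adjusted p under 0.05).

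Per kilobase of exon, Spn had the highest level of the 10 genes in cNK cells, with 283.1 CPM per kilobase in cNK labelled CD8KO and 289.2 in cNK WT. Cma1 came next, with 154.3 CPM per kilobase in cNK labelled CD8KO and 154.4 in cNK WT, followed by Klrg1 with 127.2 and 119.6 CPM per kilobase in those groups. Each of these 3 genes stood above the next beyond the range of the samples. Ly6c2 and Irf8 had overlapping levels in cNK labelled CD8KO (73.9 and 71.7 CPM per kilobase) and separate ones in cNK WT (94.2 and 67.9). As3mt (42.2 CPM per kilobase in cNK labelled CD8KO, 44.2 in cNK WT) stood below them and above Serpinb9b, Zeb2 and Lgals3. Adgrg1 was the lowest, with 0.0171 CPM per kilobase in cNK labelled CD8KO and 0.0587 in cNK WT.

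The order was another one in LrNK cells. In LrNK labelled CD8KO, Lgals3 led with 154.5 CPM per kilobase, above Spn with 108.3, Ly6c2 with 86.0 and Irf8 with 47.9, whose neighbouring ranges overlapped. In LrNK WT, Spn (104.2 CPM per kilobase) overlapped with Lgals3 (61.1), and Irf8 (30.3) with Ly6c2 (27.2). Zeb2 and Klrg1 were at 7.38 and 2.95 CPM per kilobase in LrNK labelled CD8KO and at 2.90 and 2.78 in LrNK WT. As3mt, Adgrg1, Cma1 and Serpinb9b were at 2.05 CPM per kilobase or less in both LrNK groups. Cma1 thus held the second place of the 10 in both cNK groups. By its mean it came ninth in both LrNK groups, where its range overlapped those of its neighbours Adgrg1 and Serpinb9b.

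**Figure D1:**
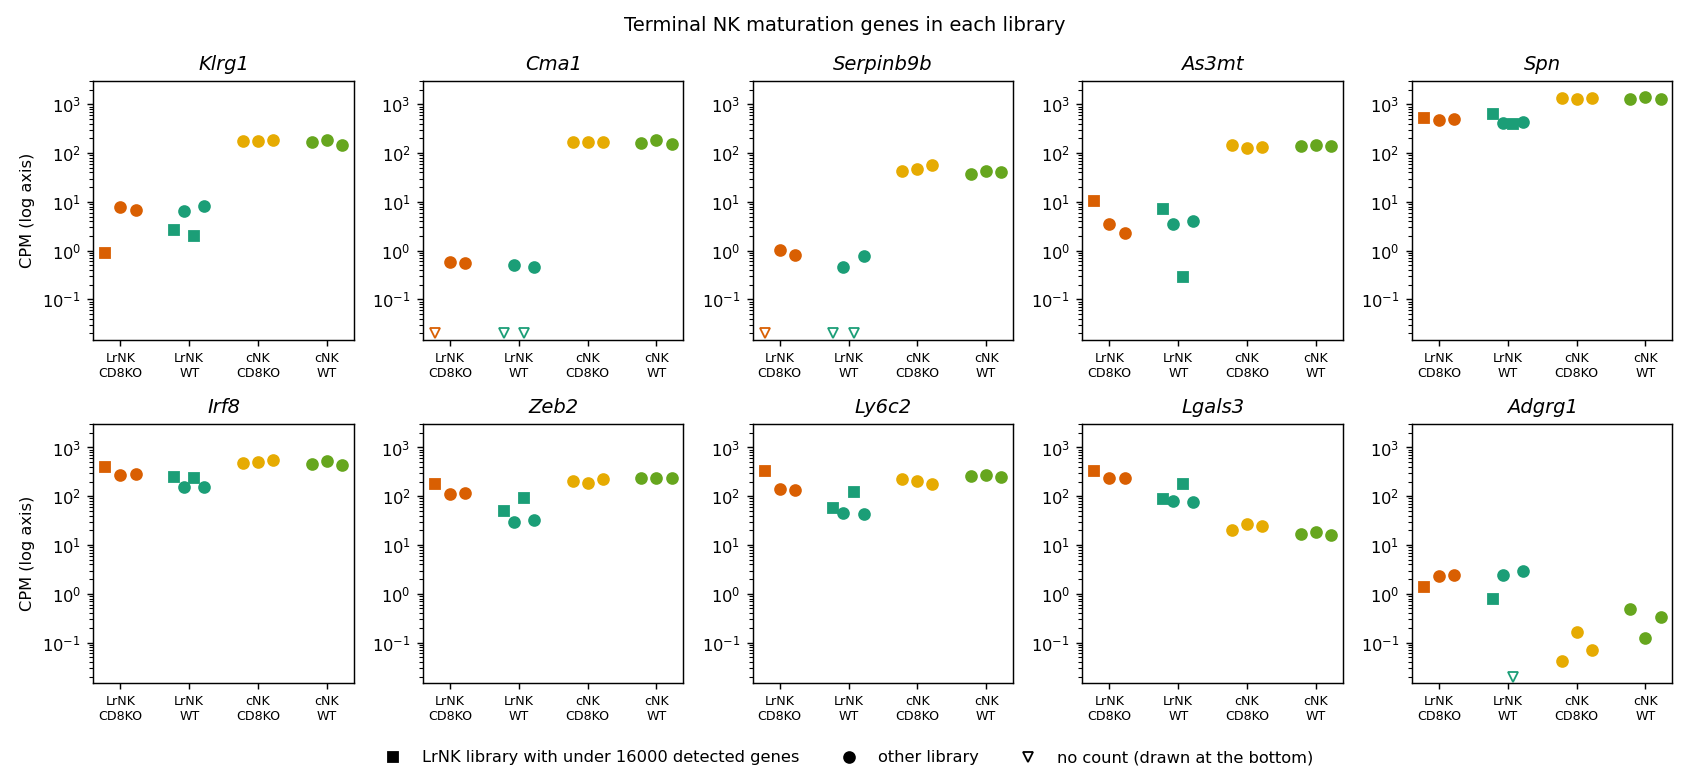
CPM of each of the 10 genes (log axis) in every library of the 4 groups, 1 point per library; squares are LrNK libraries with under 16000 detected genes and open triangles are libraries with no count. Klrg1, Cma1, Serpinb9b and As3mt lay at 10.25 CPM or below in every LrNK library and at 36.8 CPM or above in every cNK library, while Lgals3 was higher in every LrNK library than in any cNK library.

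LrNK and cNK cells were compared first, beginning with the genes of surface proteins. Klrg1, which encodes an inhibitory lectin-like receptor that binds cadherins, was far lower in LrNK cells. It had 0.891, 8.02 and 6.82 CPM in LrNK labelled CD8KO replicates 1 to 3, and 179.9, 174.5 and 185.2 CPM in cNK labelled CD8KO. In LrNK WT replicates 1 to 4 it had 2.61, 6.58, 1.998 and 8.05 CPM, and in cNK WT 169.6, 189.7 and 148.1 CPM. No LrNK library came near a cNK library, and the lowest Klrg1 values were those of the 3 LrNK libraries with few detected genes. The log2 change of LrNK over cNK was -5.21 ± 0.90 for the CD8KO label (SE, edgeR adjusted p = 0.0121) and -5.29 ± 0.57 for WT (edgeR adjusted p = 0.00207). In these bulk samples, fewer cells with a transcript and less of it per cell cannot be told apart.

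Spn encodes sialophorin (CD43), a heavily glycosylated mucin of leukocytes. It had 532.7, 473.4 and 491.2 CPM in LrNK labelled CD8KO, against 1357, 1287 and 1332 CPM in cNK labelled CD8KO. LrNK WT had 636.2, 420.3, 403.7 and 428.4 CPM, against 1301, 1445 and 1314 CPM in cNK WT. Every LrNK library was below every cNK library, although Spn was among the most abundant of the 10 genes in both. The log2 change of LrNK over cNK was -1.26 ± 0.10 for the CD8KO label (edgeR adjusted p = 0.00108) and -1.40 ± 0.19 for WT (edgeR adjusted p = 0.00462), the smallest fall in log2 terms among the genes called under both labels.

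Ly6c2 encodes the membrane-anchored antigen Ly6C, carried by monocytes and by subsets of NK and T cells. It had 332.8, 141.1 and 135.7 CPM in LrNK labelled CD8KO, a range that overlaps the 226.3, 204.6 and 176.6 CPM of cNK labelled CD8KO. The LrNK WT libraries had 58.6, 44.7, 120.7 and 42.6 CPM, all below the 260.5, 269.6 and 244.5 CPM of cNK WT. The separation of the NK types was therefore seen for WT and not for the CD8KO label. The log2 change of LrNK over cNK was 0.32 ± 0.34 for the CD8KO label (edgeR adjusted p = 0.539) and -1.73 ± 0.35 for WT (edgeR adjusted p = 0.0178). Without LrNK CD8KO replicate 1 the CD8KO change was -0.39 (edgeR adjusted p = 0.0128), with the remaining LrNK sample assumed to vary like the cNK samples. Of the distinct 50-base words in Ly6c2 transcripts, 14.5% also occur in another gene, most of them in its neighbour Ly6c1, which itself had 0.0235 to 3.82 CPM over the 13 libraries, and how shared reads were counted is not given in the sources used here.

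Adgrg1 encodes GPR56, an adhesion G protein-coupled receptor known from mature human NK cells. It had 1.39, 2.37 and 2.39 CPM in LrNK labelled CD8KO, against 0.0412, 0.168 and 0.0699 CPM in cNK labelled CD8KO. Values in LrNK WT were 0.799, 2.44, 0 and 2.91 CPM, against 0.495, 0.124 and 0.336 CPM in cNK WT. LrNK WT replicate 3, with no Adgrg1 count, is 1 of the libraries with few detected genes, and a count of 0 there allows up to 0.0768 CPM. All these levels are low, and LrNK libraries were above all cNK libraries of the same label except for that one. The log2 change of LrNK over cNK was 4.44 ± 0.85 for the CD8KO label (edgeR adjusted p = 0.0164) and 1.99 ± 1.74 for WT (edgeR adjusted p = 0.502). The WT change was 3.16 without the LrNK libraries of few detected genes, a fit with 1 LrNK sample left.

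A protease, a protease inhibitor and a methyltransferase were also far lower in LrNK cells. Cma1 encodes chymase, a serine protease best known from mast cell granules. It had 0, 0.588 and 0.551 CPM in LrNK labelled CD8KO, against 168.1, 169.7 and 166.7 CPM in cNK labelled CD8KO. In LrNK WT it had 0, 0.512, 0 and 0.458 CPM, against 162.6, 188.1 and 154.1 CPM in cNK WT. All LrNK libraries together held 51 Cma1 counts under the CD8KO label and 36 in WT, and the 3 libraries with none are those with few detected genes, where a count of 0 allows up to 0.0705 to 0.0835 CPM. The log2 change was -8.69 ± 0.82 for the CD8KO label (edgeR adjusted p = 0.00182) and -9.52 ± 0.95 for WT (edgeR adjusted p = 0.00148), and its size depends on how the fit treats the samples at 0. The 5 mast cell markers summed to 1.504 to 2.21 CPM over the 13 libraries, and the mast cell protease gene Mcpt4 was at 0 in all of them.

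Serpinb9b belongs to the clade B serpins and is a close relative of Serpinb9, the mouse inhibitor of granzyme B. It had 0, 1.05 and 0.814 CPM in LrNK labelled CD8KO, against 42.7, 48.2 and 58.1 CPM in cNK labelled CD8KO. In LrNK WT it had 0, 0.465, 0 and 0.785 CPM, against 36.8, 43.3 and 40.6 CPM in cNK WT. The groups were far apart under both labels, with log2 changes of -6.31 ± 0.99 for the CD8KO label (edgeR adjusted p = 0.00888) and -7.28 ± 1.22 for WT (edgeR adjusted p = 0.00946). Its relative Serpinb9, which lies beside it on chromosome 13, was well expressed in both NK types, with 61.6 to 248.4 CPM in LrNK labelled CD8KO, 106.8 to 231.8 CPM in LrNK WT and 338.4 to 388.3 CPM over all cNK libraries. The log2 change of Serpinb9 was -1.08 ± 0.58 for the CD8KO label (edgeR adjusted p = 0.234) and -1.15 ± 0.31 for WT (edgeR adjusted p = 0.0445).

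As3mt encodes arsenite methyltransferase, which transfers methyl groups to arsenic compounds. It had 10.25, 3.44 and 2.35 CPM in LrNK labelled CD8KO, against 145.8, 124.5 and 135.8 CPM in cNK labelled CD8KO. Values in LrNK WT were 6.98, 3.47, 0.282 and 3.99 CPM, against 138.8, 148.2 and 138.6 CPM in cNK WT. The cNK samples lay close together while the LrNK samples spread widely and stayed far below them. The log2 change was -4.29 ± 0.55 for the CD8KO label (edgeR adjusted p = 0.00473) and -5.19 ± 0.91 for WT (edgeR adjusted p = 0.0115).

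The 2 transcription factors were called lower in LrNK than in cNK cells for WT and not for the CD8KO label. Zeb2 encodes a zinc-finger repressor that binds E-box sequences. It had 179.9, 113.9 and 115.2 CPM in LrNK labelled CD8KO, against 210.0, 186.3 and 222.5 CPM in cNK labelled CD8KO. In LrNK WT it had 50.3, 30.0, 91.7 and 33.1 CPM, against 232.9, 239.9 and 237.4 CPM in cNK WT. The groups did not overlap under either label, but the gap was narrow for CD8KO, where the highest LrNK library was just below the lowest cNK library. The log2 change was -0.37 ± 0.19 for the CD8KO label (edgeR adjusted p = 0.206) and -1.97 ± 0.35 for WT (edgeR adjusted p = 0.0116).

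Irf8 encodes an interferon regulatory factor central to monocytes, dendritic cells and B cells, and also expressed by NK cells. It had 396.9, 273.4 and 284.4 CPM in LrNK labelled CD8KO, against 469.8, 503.3 and 543.9 CPM in cNK labelled CD8KO. The LrNK WT libraries had 252.7, 157.5, 232.7 and 153.9 CPM, against 463.4, 531.0 and 443.4 CPM in cNK WT. Every LrNK library was below every cNK library of its label. The log2 change was -0.47 ± 0.15 for the CD8KO label (edgeR adjusted p = 0.0756) and -1.10 ± 0.18 for WT (edgeR adjusted p = 0.00864). Without LrNK CD8KO replicate 1, a library of few detected genes, the changes for the CD8KO label were -0.70 for Irf8 and -0.69 for Zeb2, on 1 LrNK sample.

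Lgals3, which encodes the galactoside-binding lectin galectin-3, ran the other way. It had 336.1, 239.3 and 236.6 CPM in LrNK labelled CD8KO, against 20.2, 26.5 and 25.0 CPM in cNK labelled CD8KO. In LrNK WT it had 86.4, 79.7, 175.5 and 77.3 CPM, against 17.0, 18.4 and 16.1 CPM in cNK WT. Every LrNK library was above every cNK library. The log2 change was 3.70 ± 0.18 for the CD8KO label (edgeR adjusted p = 0.000328) and 2.80 ± 0.32 for WT (edgeR adjusted p = 0.00238). Galectin-3 is abundant in macrophages and monocytes. Under the CD8KO label the 10 neutrophil and monocyte markers summed to 2879 to 9865 CPM in LrNK and 825.9 to 937.3 CPM in cNK. In WT the sums were 763.9 to 4572 CPM in LrNK and 685.2 to 819.8 CPM in cNK. Most of each cNK sum was Ccr2, with 609.9 to 825.3 CPM in cNK libraries and 90.1 to 805.2 CPM in LrNK libraries. Of these markers Lyz2 had 18.91 CPM or less in every cNK library and 520.2 CPM or more in every LrNK library. The part of myeloid cells in the Lgals3 difference was not tested.

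Counting over the 10 genes, 2 were called higher and 5 lower in LrNK than in cNK cells labelled CD8KO, where 15.4% and 11.6% of the 17795 genes tested were called in those directions and 27% in either. For WT, 1 was called higher and 8 lower, where 10.9% and 9.83% of 16456 genes were called and 20.7% in either direction. The 10 genes are not independent of earlier results of these data, so the counts are a description. LrNK samples lay wholly above cNK samples for 2 genes and wholly below for 7 under the CD8KO label, where this held for 23.3% and 38.4% of genes, and for 1 and 8 in WT, where it held for 17% and 31.7%. The median log2 change of the 10 was -0.86 for the CD8KO label and -1.85 for WT, beside -0.05 and -0.08 over all genes tested. Leaving out any 1 cNK sample cut the calls to 4 for the CD8KO label (Cma1, Spn, As3mt and Lgals3), and to 8 without cNK WT replicate 1 and 6 without replicate 2 or 3. Calls over all genes also varied with 1 sample left out, over the ranges given in the last section. These losses therefore cannot be read as particular to the 10 genes. Without the LrNK libraries of few detected genes all 10 were called under both labels, but so were 55.5% of genes for the CD8KO label and 58.2% for WT; 1 LrNK sample remained in each of these fits.

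**Figure D2:**
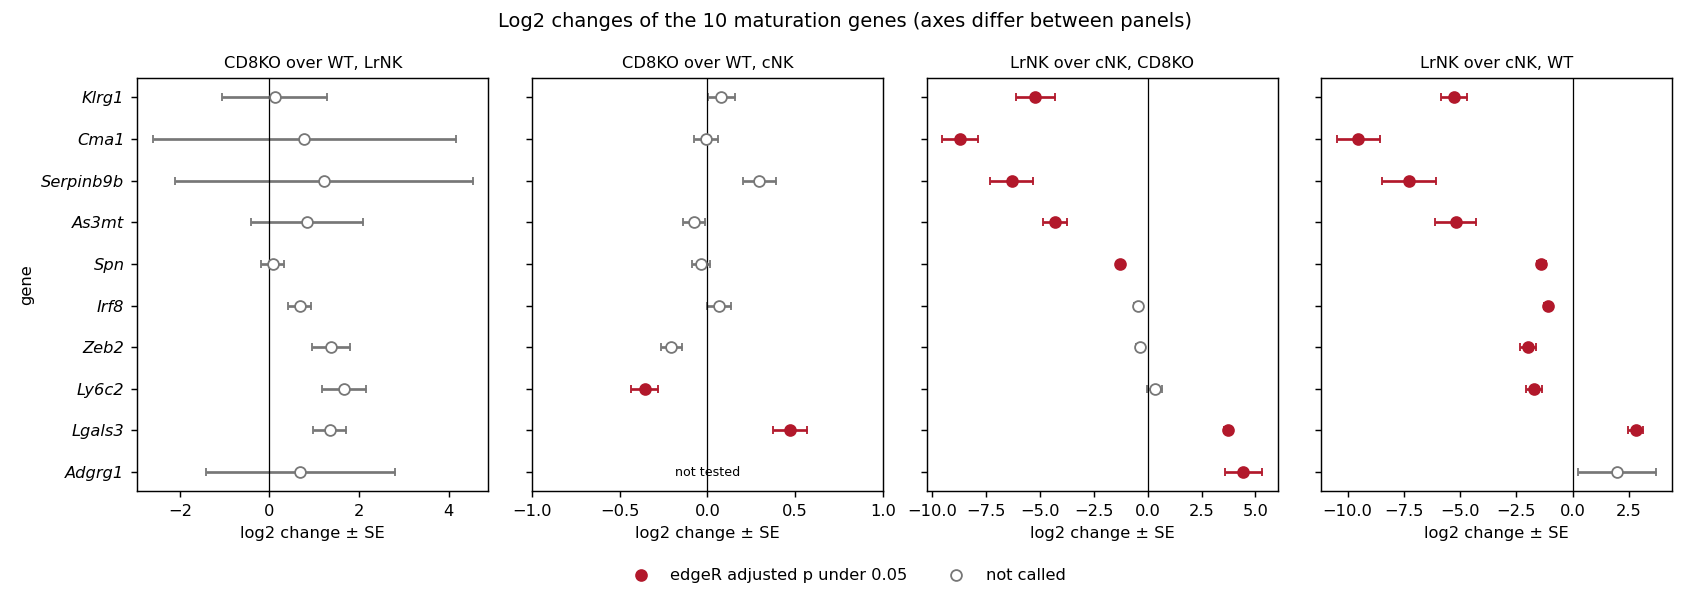
Log2 changes of the 10 genes with standard errors in 4 comparisons (edgeR; each panel has its own axis); filled points have an adjusted p under 0.05, and Adgrg1 was too low to be tested between the cNK groups. In the LrNK over cNK panels the points run from -8.69 for Cma1 to 4.44 for Adgrg1 under the CD8KO label and from -9.52 for Cma1 to 2.80 for Lgals3 in WT, while between the labels only Ly6c2 and Lgals3 in cNK cells are filled.

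The stretches just upstream of 4 of these genes are shown because they stand at the ends of the range between the NK types: Cma1 and Serpinb9b, the 2 genes furthest below cNK levels in LrNK cells, and Lgals3 and Adgrg1, the 2 above them. Each is the 250 bases before the RefSeq start of the gene (GRCm38.p6), 5′ to 3′ on the gene's strand: chr14:55944676-55944925 on the minus strand for Cma1, chr13:33027164-33027413 on the plus strand for Serpinb9b, chr14:47373610-47373859 on the plus strand for Lgals3 and chr8:94976859-94977108 on the plus strand for Adgrg1. Capitals mark matches on either strand. The motifs searched were the E-box CACCTG, the kind of site bound by ZEB factors such as the product of Zeb2. The half-site of T-box factors such as T-bet, AGGTGT, was searched in the same way.
Cma1: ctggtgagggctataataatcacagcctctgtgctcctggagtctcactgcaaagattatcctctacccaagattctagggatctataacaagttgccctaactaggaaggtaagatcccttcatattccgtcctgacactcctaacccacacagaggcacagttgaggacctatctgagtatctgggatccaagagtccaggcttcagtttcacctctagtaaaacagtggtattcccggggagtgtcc
Serpinb9b: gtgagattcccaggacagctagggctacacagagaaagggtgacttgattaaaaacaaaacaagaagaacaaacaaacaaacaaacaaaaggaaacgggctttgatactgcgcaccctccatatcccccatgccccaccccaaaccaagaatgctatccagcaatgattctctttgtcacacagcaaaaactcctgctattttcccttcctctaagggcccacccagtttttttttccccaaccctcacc
Lgals3: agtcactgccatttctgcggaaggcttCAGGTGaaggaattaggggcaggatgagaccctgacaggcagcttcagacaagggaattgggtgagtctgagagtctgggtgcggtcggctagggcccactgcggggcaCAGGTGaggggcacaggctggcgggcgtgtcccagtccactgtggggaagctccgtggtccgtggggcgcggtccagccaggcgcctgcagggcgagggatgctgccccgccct
Adgrg1: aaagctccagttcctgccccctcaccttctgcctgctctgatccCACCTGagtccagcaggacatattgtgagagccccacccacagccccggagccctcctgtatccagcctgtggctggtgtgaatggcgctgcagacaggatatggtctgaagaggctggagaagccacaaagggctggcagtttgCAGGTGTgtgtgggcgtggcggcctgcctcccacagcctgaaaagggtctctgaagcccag
Lgals3 had 2 matches to CACCTG, and Adgrg1 had 2, of which the second overlaps its 1 match to AGGTGT. Cma1 and Serpinb9b had none, nor did the windows of Zeb2, Irf8, Spn, Ly6c2 and As3mt. Windows were matched for 9 of the 10 genes, not for Klrg1. CACCTG occurs in 17.2% of the 32851 windows of this length and AGGTGT in 11.8%, so matches in 2 of 9 and 1 of 9 windows are a description of these letters. The RefSeq starts used for Lgals3 and Adgrg1 lie 6109 and 2358 bases from the GENCODE M21 gene starts.

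Between LrNK cells labelled CD8KO and LrNK WT, 4 of the 10 genes had every CD8KO sample above every WT sample, and none had every sample below. The 4 were Zeb2, Irf8, Ly6c2 and Lgals3, and such separation held for 9.84% of the 16504 genes tested upwards and 8.47% downwards. Lgals3 averaged 287.0 ± 69.4 CPM in LrNK labelled CD8KO and 113.5 ± 53.8 CPM in LrNK WT (SD, n = 2 and 3 samples). Ly6c2 averaged 235.7 ± 137.3 CPM in LrNK labelled CD8KO and 74.4 ± 40.8 CPM in LrNK WT. Zeb2 averaged 147.2 ± 46.3 CPM in LrNK labelled CD8KO and 57.8 ± 30.9 CPM in LrNK WT. Of the 4 genes Irf8 had the smallest ratio of means, with 337.7 ± 83.7 CPM in LrNK labelled CD8KO and 213.8 ± 51.1 CPM in LrNK WT. The log2 changes of CD8KO over WT were 1.35 ± 0.37 for Lgals3, 1.66 ± 0.49 for Ly6c2, 1.37 ± 0.42 for Zeb2 and 0.68 ± 0.26 for Irf8, each with an edgeR adjusted p of 1.

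None of the 10 genes passed the test in this comparison, and neither did any other gene (0% of 16504, edgeR adjusted p under 0.05). At an unadjusted p under 0.05 there were 615 genes (3.73%), the 4 named above among them. With all 4 groups in 1 fit 0.716% of genes were called, with limma voom 0.0311% and with DESeq2 0.547%, and none of the 10 was among them (DESeq2 gave 7 of the 10 an adjusted p). Without a filter on low counts Zeb2, Ly6c2 and Lgals3 were called, as were 1.01% of 25596 genes. The spread between LrNK samples was a biological coefficient of variation of 98.2%, against 9.60% between cNK samples.

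The other 6 genes gave overlapping ranges in LrNK cells, at 507.2 ± 36.0 CPM in LrNK labelled CD8KO and 487.9 ± 128.9 CPM in LrNK WT for Spn. Klrg1 averaged 4.17 ± 4.64 CPM in LrNK labelled CD8KO and 3.93 ± 2.84 CPM in LrNK WT. Klrg1, the defining receptor of the terminal stage, changed by 0.11 ± 1.18 on the log2 scale and Spn by 0.08 ± 0.26 (edgeR adjusted p = 1 for both). Cma1, Serpinb9b, As3mt and Adgrg1 changed by 0.78 ± 3.38, 1.21 ± 3.33, 0.84 ± 1.24 and 0.69 ± 2.12, with errors larger than the changes. The median of the 10 log2 changes was 0.81, beside 0.02 over all genes tested. It fell between the changes of Cma1 and As3mt, both smaller than their errors.

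Because the libraries with few detected genes fall in both LrNK groups, the values were also set side by side within each kind of library. Among those with few detected genes (1 CD8KO, 2 WT), the CD8KO level divided by the WT level was 3.71 for Ly6c2, 2.57 for Lgals3, 2.53 for Zeb2 and 1.64 for Irf8. In the others (1 summed sample each) it was 3.16 for Ly6c2, 3.02 for Lgals3, 3.66 for Zeb2 and 1.78 for Irf8. As the 4 were named for having every CD8KO sample above every WT sample, ratios above 1 follow from that choice, and only their sizes are new. Klrg1 had a ratio of 0.387 in the first kind and 1.04 in the second, and As3mt 2.82 and 0.795, so neither had 1 direction.

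Markers of myeloid cells and of the NK types were set beside these 4 genes in the LrNK groups. Not all differed in the same direction as the 4, and some ranges overlapped. Lyz2, the lysozyme gene of macrophages and neutrophils, had 7411, 1942 and 1986 CPM in LrNK labelled CD8KO and 1844, 520.4, 3532 and 520.2 CPM in LrNK WT. Csf1r, the receptor of a macrophage growth factor, had 1118, 484.0 and 498.7 CPM in LrNK labelled CD8KO and 370.8, 114.6, 558.5 and 109.7 CPM in LrNK WT. Of the 10 neutrophil and monocyte markers 9 were tested and all 9 had a positive log2 change, with a median of 1.51, none of them called. The neutrophil gene Retnlg had 0.613, 6.38 and 6.01 CPM in LrNK labelled CD8KO and was at 0 in all 4 LrNK WT libraries, and Ly6g had 0 to 0.144 CPM in LrNK labelled CD8KO and was at 0 in all 4 LrNK WT libraries. The 6 dendritic cell markers summed to 57.0 to 140.3 CPM in LrNK labelled CD8KO and 32.8 to 115 CPM in LrNK WT. The 8 Kupffer cell markers summed to 158.7 to 287.4 CPM in LrNK labelled CD8KO and 95.3 to 273.9 CPM in LrNK WT, and the 10 B cell markers to 23.1 to 160.7 CPM in LrNK labelled CD8KO and 12.4 to 22.05 CPM in LrNK WT. The 4 cNK markers summed to 103.1 to 146.0 CPM in LrNK labelled CD8KO and 54.4 to 87.0 CPM in LrNK WT. Of these 4, 3 had a positive log2 change and Itga2 a negative one (-0.58 ± 0.32). Itgam alone had 51.5 to 84.0 CPM in the LrNK samples labelled CD8KO and 14.2 to 35.6 CPM in those of LrNK WT. The 5 LrNK markers summed to 576.4 to 780.6 CPM in LrNK labelled CD8KO and 833.9 to 1369 CPM in LrNK WT, and 5 general NK markers to 1781 to 1948 CPM in LrNK labelled CD8KO and 2185 to 2891 CPM in LrNK WT. The sums of these 3 lists of NK markers did not overlap between the labels, while no gene of the 3 lists was called. Those of the LrNK and general NK markers were lower under the CD8KO label. Of the 5 general NK markers, 4 had a negative log2 change and Eomes a positive one (1.74 ± 1.07). Zeb2, Irf8, Ly6c2 and Lgals3 are all genes that myeloid cells express, and Zeb2, Irf8 and Ly6c2 were also higher in cNK WT than in LrNK WT; the part of myeloid or cNK cells in these values was not tested.

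**Figure D3:**
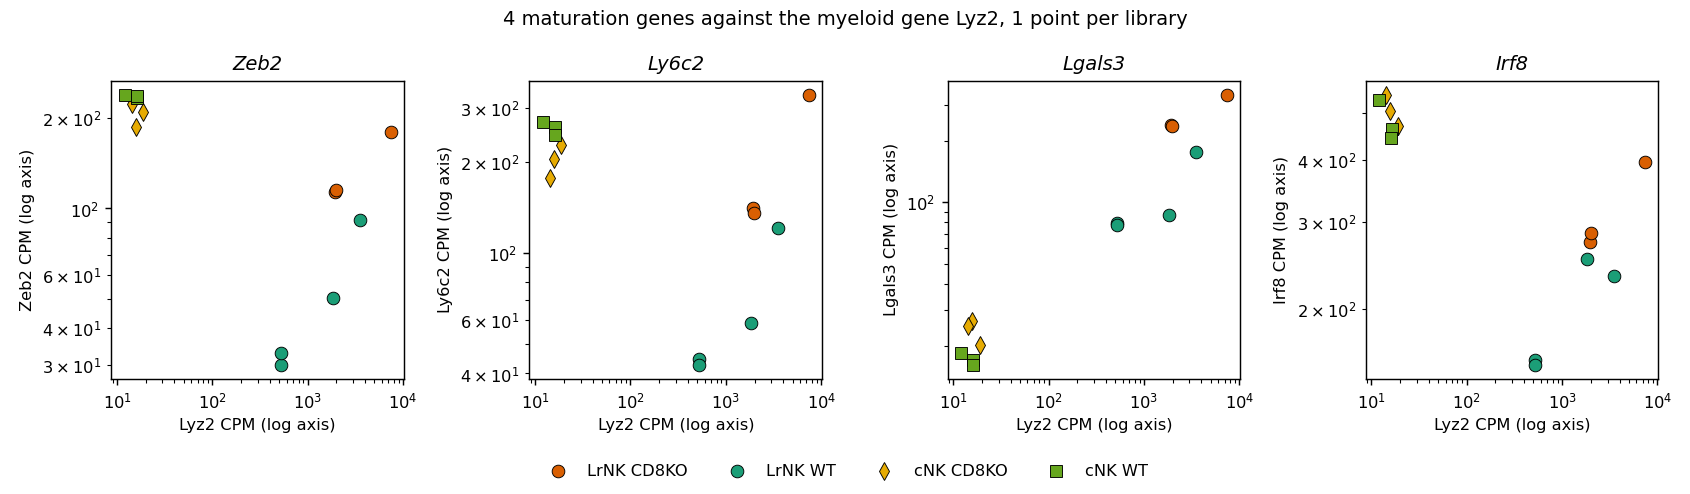
CPM of Zeb2, Ly6c2, Lgals3 and Irf8 against CPM of Lyz2 (both log axes), 1 point per library, with closely agreeing libraries drawn separately. Within the LrNK libraries the CD8KO replicate with 7411 Lyz2 CPM has the highest value of each gene. LrNK WT replicate 3, with 3532 Lyz2 CPM, has less of each gene than CD8KO replicates 2 and 3, with 1942 and 1986. The cNK libraries stand apart with Lyz2 at 18.9 CPM or less.

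Between cNK cells labelled CD8KO and cNK WT, 1 of the 10 genes was called higher and 1 lower. Lgals3 had 20.2, 26.5 and 25.0 CPM in CD8KO and 17.0, 18.4 and 16.1 CPM in WT, with no overlap, and its log2 change was 0.47 ± 0.10 (edgeR adjusted p = 0.0274). Ly6c2 had 226.3, 204.6 and 176.6 CPM in CD8KO and 260.5, 269.6 and 244.5 CPM in WT, again with no overlap, and its log2 change was -0.36 ± 0.08 (edgeR adjusted p = 0.0334). Both changes are small, 1.38-fold up and 1.28-fold down. Of the 16619 genes tested, 1.31% were called, 0.499% higher and 0.812% lower, and 9 of the 10 genes were tested, since Adgrg1 fell to the filter on low counts.

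Zeb2 was the third gene whose cNK groups did not overlap, with 210.0, 186.3 and 222.5 CPM in CD8KO and 232.9, 239.9 and 237.4 CPM in WT. Its log2 change of -0.21 ± 0.06 was not called (edgeR adjusted p = 0.12). Such separation held for 9.68% of genes upwards and 8.35% downwards, beside 1 and 2 of the 9. Serpinb9b changed by 0.30 ± 0.09 (edgeR adjusted p = 0.16). Klrg1, Spn, Cma1, As3mt and Irf8 changed by 0.08 ± 0.08, -0.04 ± 0.05, -0.01 ± 0.07, -0.08 ± 0.06 and 0.07 ± 0.07, with edgeR adjusted p from 0.677 to 0.973. The median of the 9 changes was -0.01, beside -0.00164 over all genes.

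The 2 cNK calls depended on the fit. With all 4 groups in 1 fit neither was called (0.00518% of genes were), nor with limma voom (0.793%), while DESeq2 and the fit without a filter on low counts called Ly6c2, Lgals3, Zeb2 and Serpinb9b (3.92% and 2.08% of genes). Leaving out cNK WT replicate 1, or CD8KO replicate 2 or 3, ended both calls, and leaving out WT replicate 2 ended that of Ly6c2 (edgeR adjusted p = 0.0545) and WT replicate 3 that of Lgals3 (edgeR adjusted p = 0.0805). The neutrophil and monocyte markers, most of them near 0 in cNK cells and led by Ccr2, summed to 825.9 to 937.3 CPM in CD8KO and 685.2 to 819.8 CPM in WT.

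The change with the CD8KO label was then compared between the NK types. Zeb2 and Ly6c2 separated in opposite directions. Every LrNK CD8KO sample was above every LrNK WT sample, and every cNK CD8KO sample was below every cNK WT sample. Taken singly, the first held for 9.84% of the genes tested in LrNK cells and the second for 8.35% in cNK cells. The share of genes with both was not counted. The difference of the log2 changes, LrNK minus cNK, was 1.60 ± 0.44 for Zeb2 (edgeR adjusted p = 0.334) and 2.06 ± 0.53 for Ly6c2 (edgeR adjusted p = 0.293). Lgals3 gave 0.91 ± 0.39 (edgeR adjusted p = 0.562) and Irf8 0.63 ± 0.26 (edgeR adjusted p = 0.536). None of the 10 passed, where 0.0415% of 19287 genes did. Of the 10, 4 had an unadjusted p under 0.05, as had 8.44% of all genes.

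Other fits of this difference gave other calls. DESeq2 called Zeb2 (adjusted p = 0.0334) and Ly6c2 (adjusted p = 0.0118), with 1.98% of genes called, and limma voom called none of the 10 (0.0156% of genes). Without LrNK WT replicate 3, edgeR called Zeb2, Ly6c2 and Lgals3. That library had the most Lyz2 of the LrNK WT libraries and also the fewest detected genes (13917). The part of either in these calls was not tested. Calls over all genes also varied with 1 sample left out, over the range given in the last section. The calls of Zeb2, Ly6c2 and Lgals3 therefore cannot be read as particular to the 10 genes. Without the libraries of few detected genes, which leaves 1 LrNK sample a group, edgeR called Zeb2, Ly6c2, Lgals3 and Irf8 and also 13.6% of all genes. The median difference of the 10 was 0.90, beside 0.07 over all genes.

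Other genes of NK maturation were taken as 2 lists, a wider terminal list of 19 genes and an immature list of 14. Of the wider terminal list, 4 genes were called higher and 8 lower in LrNK than in cNK cells labelled CD8KO (19 tested), where 15.4% and 11.6% of all genes were called, and 3 higher and 8 lower in WT (18 tested), where 10.9% and 9.83% were, with median log2 changes of -0.67 for both. Under the CD8KO label the smallest p belonged to Prf1, the pore-forming perforin (-2.57 ± 0.12, edgeR adjusted p = 0.000267), S1pr5, the receptor that lets NK cells leave tissue (-4.09 ± 0.28, edgeR adjusted p = 0.000762), and Havcr2, which encodes the inhibitory receptor TIM3 (6.01 ± 0.42, edgeR adjusted p = 0.000798). In WT they were S1pr5 (-5.15 ± 0.33, edgeR adjusted p = 0.000293), Gzmb, which encodes granzyme B (2.35 ± 0.19, edgeR adjusted p = 0.000705), and Lgals1, a galectin like Lgals3 (-1.35 ± 0.12, edgeR adjusted p = 0.000897). Lgals1 and Lgals3 thus went in opposite directions between the NK types.

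Of the 14 genes of the immature list, 6 were called higher and 4 lower in LrNK than in cNK cells labelled CD8KO, beside the same 15.4% and 11.6% of all genes, and 6 higher and 3 lower in WT, beside 10.9% and 9.83%, with medians of 0.37 and 0.26. Under the CD8KO label the smallest p belonged to Id3, an inhibitor of E proteins (6.42 ± 0.44, edgeR adjusted p = 0.000775), Ctla2a, a cathepsin inhibitor (-2.98 ± 0.33, edgeR adjusted p = 0.00298), and Kit, the stem cell factor receptor (-0.83 ± 0.11, edgeR adjusted p = 0.00553). In WT they were Tcf7, the transcription factor TCF1 of early lymphocytes (-2.07 ± 0.15, edgeR adjusted p = 0.000459), Ctla2a (-2.54 ± 0.18, edgeR adjusted p = 0.000486) and Cxcr3, a chemokine receptor (1.73 ± 0.13, edgeR adjusted p = 0.00055).

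**Figure D4:**
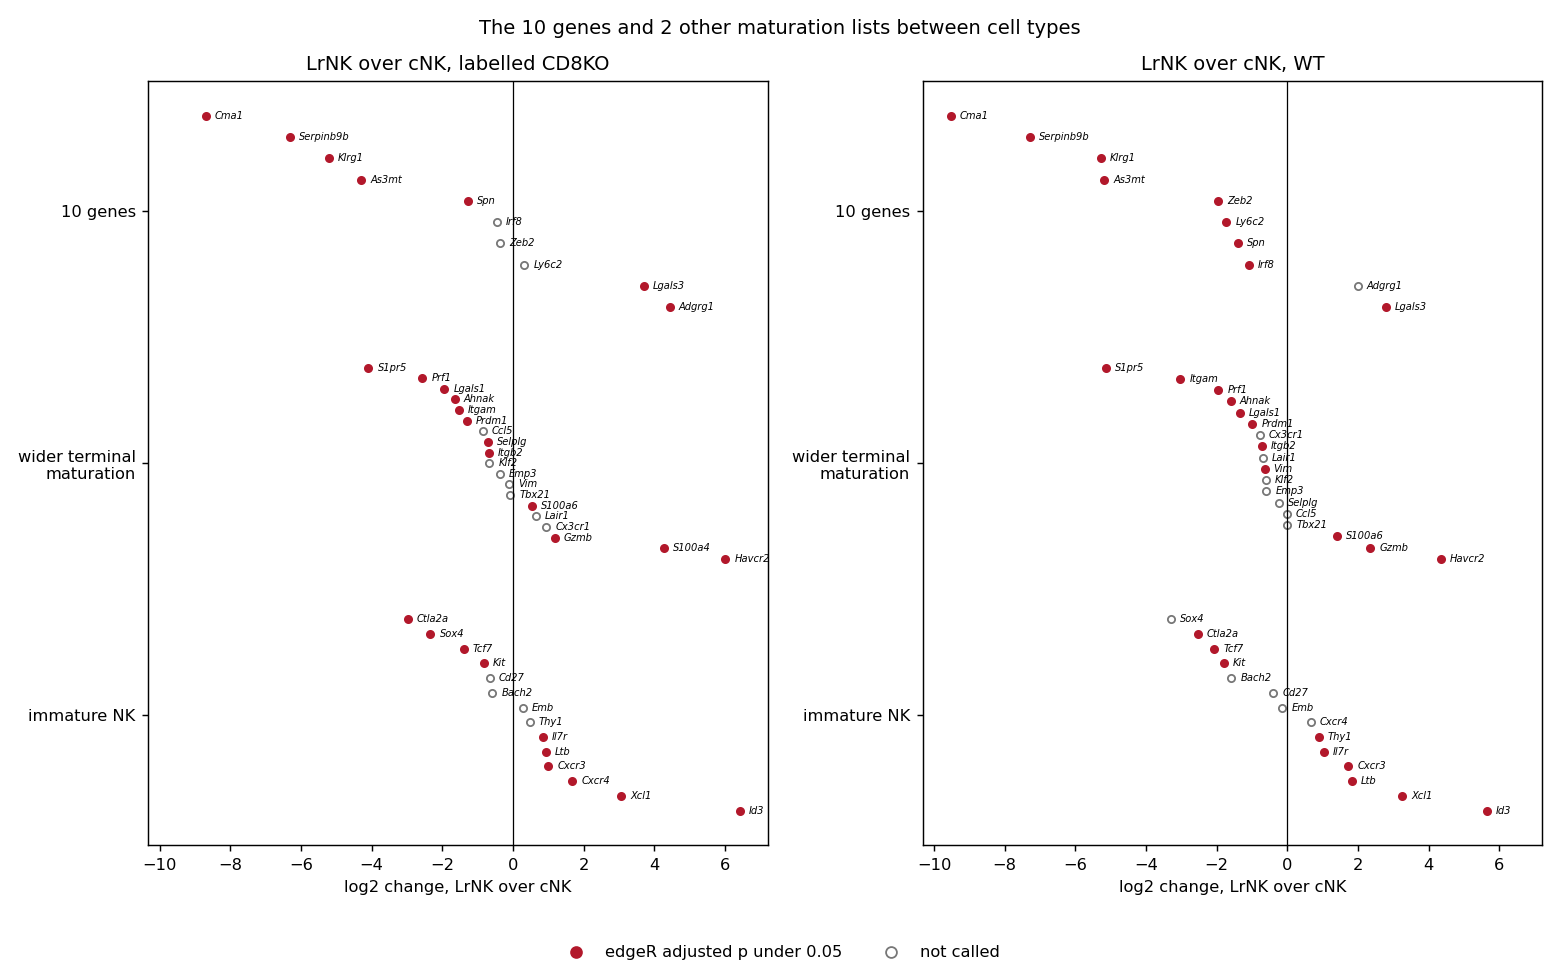
Log2 change of LrNK over cNK for the 10 genes, the wider terminal list and the immature list, under the CD8KO label and in WT; filled points have an edgeR adjusted p under 0.05. Every list has filled points on both sides of 0, and Cma1 (-8.69 under the CD8KO label, -9.52 in WT) is the point furthest to the left in both panels.

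Between the labels these lists gave few calls. In LrNK cells no gene of either list was called, with medians of -0.06 for the wider terminal list and 0.26 for the immature list. In cNK cells no gene of the wider terminal list was called, and 3 of the immature list were: Thy1, a surface marker of immature NK cells (0.35 ± 0.05, edgeR adjusted p = 0.00108), and Cxcr3 (0.28 ± 0.06, edgeR adjusted p = 0.0187) were higher in cells labelled CD8KO, and Xcl1, a chemokine for cross-presenting dendritic cells (-0.31 ± 0.06, edgeR adjusted p = 0.0245), was lower. Cd27, the receptor named in the study's title, was called in none of these comparisons, with log2 changes of CD8KO over WT of -0.17 ± 0.28 in LrNK cells (edgeR adjusted p = 1) and 0.09 ± 0.07 in cNK cells (edgeR adjusted p = 0.616).

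For each gene called between LrNK WT and cNK WT, the 2 protein-coding genes with the most similar course over the 11 samples were found by the root mean square difference of centred log2(CPM + 1) values, which is a description. Serpinb9b (0.371) and Kcnip3 (0.379) were the closest to Klrg1, and Car5b (0.171) and Kcnip3 (0.229) the closest to Serpinb9b. Cma1 was closest to Klra8 (0.533) and Klra4 (0.559), which encode activating NK receptors of the Ly49 family. As3mt was closest to Khdc1a (0.508) and Gprin3 (0.555). Spn was closest to Arhgef2 (0.0886) and Elf4 (0.106), and Irf8 to Tfdp1 (0.12) and N4bp1 (0.133). Zeb2 was closest to AB124611 (0.269) and Man2a1 (0.274), and Ly6c2 to Nhsl2 (0.279) and Zeb2 itself (0.286). Lgals3 was closest to Alpk1 (0.254) and Csf2ra (0.263), a receptor chain of myeloid growth factor signalling.

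The 10 genes lie on 8 chromosomes (GRCm38, GENCODE M21). Cma1 (chr14:55941451-55944675) and Lgals3 (chr14:47367751-47386160), which went in opposite directions between the NK types, are both on chromosome 14, and Irf8 (chr8:120736358-120756694) and Adgrg1 (chr8:94974751-95014217) on chromosome 8. Klrg1 is at chr6:122270596-122282882, Zeb2 at chr2:44983632-45117395, Spn at chr7:127132232-127137823, Ly6c2 at chr15:75108158-75111970, As3mt at chr19:46707458-46741099 and Serpinb9b at chr13:33027416-33041884. Without a stated strand setting, reads of Zeb2 and of its antisense gene Zeb2os (3.3% of Zeb2 exon bases overlap other genes), and of Serpinb9b and the opposite-strand gene Gm36099 (8.3%), cannot be told apart. No exon of the other 8 overlaps another gene, and Cma1 shares 5.38% of its 50-base words with Gm48934.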

How the data were processed

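The deposited data were 13 files of gene counts, 1 per library, with reads aligned by HISAT2 2.1.0 to GRCm38, per the submitters' processing notes; which tool, annotation and strand setting gave the counts is not stated there. Per the labels, RNA of sorted NK cells was made into TruSeq libraries from 1 microgram. Counts were used as deposited, with groups from the labels. Identifiers were matched to GENCODE M21 (54495 of 54532), and CPM are counts divided by the library total, times 1000000. The members and lists were chosen with earlier results of these data known.

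2 libraries of a group were summed where their chi-square per degree of freedom was under 4 and at least 3 times smaller than for all other pairs (3.04 in LrNK WT, 2.67 in LrNK CD8KO, against 196 to 283 for other LrNK pairs). edgeR 4.0.16 (R 4.3.3) tested all genes passing filterByExpr (minimum count 10, total 15) with TMM scaling and its quasi-likelihood test, each comparison on its own groups, with Benjamini-Hochberg adjustment and calls at an adjusted p under 0.05. Alternatives used limma 3.58.1, DESeq2 1.42.0, other filters, scalings and sample sets. The tests were tried on simulated data. CPM, sequence windows and figures were made in Python 3.11.15. All 10 genes are named in each comparison. Of each other maturation list the 3 genes with the smallest p are named, and of each similarity ranking the 2 nearest genes. Ly6g, Retnlg, Lyz2, Csf1r, Ccr2, Cd27, Serpinb9 and Ly6c1 were named after their values were seen. Intervals of counts of 0 cover counting error only. 1 gene of the wider terminal and cNK lists is not reported here.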

Additional observations from a re-analysis of the deposited data

Results flagged for a closer look

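Zeb2 and Ly6c2 were flagged because their samples separated by label in opposite directions in the 2 NK types. Every LrNK sample labelled CD8KO was above every LrNK WT sample, and every cNK sample labelled CD8KO was below every cNK WT sample. Singly, these separations held for 9.84% of genes in LrNK cells and 8.35% in cNK cells, and the share with both was not counted. The label's effect in LrNK cells minus its effect in cNK cells was 1.60 for Zeb2 and 2.06 for Ly6c2 on the log2 scale. In edgeR's quasi-likelihood test of that difference neither passed (adjusted p = 0.334 for Zeb2 and 0.293 for Ly6c2, unadjusted p = 0.0045 and 0.00277).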

How the results depend on the processing

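Counts of the 10 genes and of all genes called depended on the fit, and what caused each change was not tested. LrNK CD8KO against WT had 0 of the 10 and 0 genes; without a filter on low counts these were 3 and 259, with the replicate block 3 and 180, with the detection set as a term 0 and 0, and the gene count was 138 with all 4 groups together, 6 with limma voom, 62 with DESeq2 and 22 with 13 separate libraries. cNK CD8KO against WT had 2 and 218; with all 4 groups 0 and 1, with limma voom 0 of the 10, with DESeq2 4 and 512, without a filter 4 and 590, and 355 genes with the replicate block. Between the NK types, the WT genes (3414) became 1801 with the replicate block and 11526 without the LrNK libraries of few detected genes, and the CD8KO genes (4804) became 2162 and 10872. For the difference (0 and 8), DESeq2 gave 2 and 337, limma voom 3 genes, 13 separate libraries 68 genes, and dropping the libraries of few detected genes 4 and 2866. Fits that drop those libraries assume that the lone LrNK sample varies like the others. The replicate block in LrNK cells left few samples to measure the spread, as LrNK WT replicate 3 was alone in its number.

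Leaving out 1 sample in turn gave 0 to 0 of the 10 and 0 to 0 genes for the LrNK label, 0 to 3 and 71 to 254 for the cNK label, 6 to 9 and 1021 to 6856 for WT, 4 to 10 and 1688 to 13004 for CD8KO, and 0 to 3 and 5 to 645 for the difference.

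The replicate numbers were not taken as pairs: same-numbered samples' deviations correlated at 0.31 and 0.512 in LrNK cells (2 numbers), 0.0286 to 0.0324 between cNK groups, where 6 of 6 samples correlated best with their own number, -0.09 to -0.0125 in WT and 0.00571 to 0.0531 in CD8KO. With the replicate block Zeb2 (1.85), Ly6c2 (2.08) and Lgals3 (1.78) were called in LrNK cells. In that fit LrNK WT replicate 3 was alone in its replicate number, so it did not bear on the change between the labels.

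Log2 changes turned sign with 1 sample left out in some cases. In LrNK cells their ranges were -2.241 to 0.979 for Klrg1, -0.0488 to 0.269 for Spn, -0.221 to 1.61 for As3mt, -6.09 to 1.77 for Cma1 and -6.37 to 2.20 for Serpinb9b. In cNK cells they were -0.0152 to 0.181 for Klrg1, -0.0692 to 0.0216 for Spn and -0.0777 to 0.0886 for Cma1. For LrNK over cNK in CD8KO, Ly6c2 ranged over -0.387 to 0.757, the lowest being the fit without the libraries of few detected genes (-0.387). For the difference the ranges were -2.33 to 0.968 for Klrg1, -0.159 to 1.596 for As3mt, -6.66 to 7.5 for Cma1 and -7.18 to 7.80 for Serpinb9b. Under other settings, Klrg1 turned in LrNK cells with the block (-0.73) and with the detection set as a term (-0.74), and Spn with the block (-0.0361). In the difference, Klrg1 turned with limma voom (-0.0668), with the block (-0.258) and without the libraries of few detected genes (-0.00268), and As3mt without those libraries (-0.231). Of the 10, no gene turned for LrNK over cNK in WT. RLE scaling changed no count of the 10. Adgrg1 in cNK cells and Cma1 and Serpinb9b in LrNK cells had few counts or none, so the sizes of their changes are uncertain.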
